A study of Homo sapiens with 6 samples.

Results

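The short arm of chromosome 1 on either side of COL11A1 formed a block of 82 genes, most of which had lower mRNA levels in A2780CIS, the library with the highest COL11A1 level, than in the other libraries of the A2780 line. The block spans chr1:85018803-109181949 in GRCh37, the build of the loci in the deposited table. Of 131 genes with 1 locus inside it, 6 were set aside by rule (CYR61, GCLM, LRRC8D, and symbols that start with COL or RPL), and 43 had a mean under 1 FPKM over the 6 libraries. The remaining 82 were the members, out of 12841 genes in the genome that reached the same mean. FPKM is a read count scaled by transcript length and by library total. The block was picked because A2780CIS was low there, so the values of that library are a description, with no test.

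Each of the 6 libraries is 1 culture sequenced once, all grown in RPMI with serum. The COL11A1-high group holds A2780CIS (a cisplatin-resistant A2780 line with high endogenous COL11A1), A2780-COL11A1 (A2780 that overexpresses COL11A1) and OVCAR3-COL11A1 (OVCAR3 that overexpresses COL11A1). The COL11A1-low group holds A2780-shCOL11A1 (A2780 with an shRNA to COL11A1), OVCAR3-GFP (OVCAR3 that overexpresses GFP) and A2780 with a scrambled shRNA. Both lines were derived from ovarian cancers. The scrambled shRNA library is the only A2780 control, it served A2780-COL11A1 and A2780-shCOL11A1 alike, and A2780 had no empty overexpression construct. Whether a construct was carried by a clone or a pool is not given in the sources used here.

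COL11A1 encodes the alpha 1 chain of type XI collagen, a minor fibrillar collagen of cartilage that is also produced in the stroma of many carcinomas. As background, neighbouring genes share their DNA copy number and often their chromatin state, and can have like RNA levels. DNA and chromatin were not measured here. The genes of the block have no common function. They include DPYD (breakdown of pyrimidines and of fluorouracil), the interferon-induced guanylate-binding proteins (GBPs), the arginine methyltransferase PRMT6, the guanine nucleotide exchange factor VAV3 and the minor spliceosome protein RNPC3.

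The promoters of COL11A1, of the member with the lowest A2780CIS difference (SNX7), and of the nearest on each side of COL11A1 (PALMD before it, PRMT6 after it) among the 10 lowest members with a mean of at least 5 FPKM in A2780CIS or the other A2780 libraries show what sequence stands at the start of genes with opposite levels in A2780CIS. The sequences are RefSeq's for GRCh38.p14, a build in which coordinates differ from those of the deposited table. Each covers 300 bases around the annotated start, read on the strand of the gene. The window of COL11A1 is chr1:103108473-103108772 on the minus strand, that of PALMD chr1:99645863-99646162, that of PRMT6 chr1:107056424-107056723 and that of SNX7 chr1:98661471-98661770, these 3 on the plus strand. Capitals mark GGGCGG (the GC box), TATAAA (the TATA box) and CCAAT, each searched on both strands.
COL11A1: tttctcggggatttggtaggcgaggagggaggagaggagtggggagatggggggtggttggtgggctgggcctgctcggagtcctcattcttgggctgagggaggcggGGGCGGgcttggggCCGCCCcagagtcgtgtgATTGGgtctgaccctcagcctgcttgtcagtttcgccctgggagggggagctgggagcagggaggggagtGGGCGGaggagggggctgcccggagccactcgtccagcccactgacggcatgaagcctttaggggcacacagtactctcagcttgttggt
SNX7: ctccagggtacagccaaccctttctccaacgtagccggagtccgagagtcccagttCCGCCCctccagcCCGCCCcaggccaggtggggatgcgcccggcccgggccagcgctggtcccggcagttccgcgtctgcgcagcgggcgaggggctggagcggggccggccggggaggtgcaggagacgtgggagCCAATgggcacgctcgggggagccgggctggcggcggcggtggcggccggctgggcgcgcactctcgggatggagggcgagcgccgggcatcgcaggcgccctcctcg
PALMD: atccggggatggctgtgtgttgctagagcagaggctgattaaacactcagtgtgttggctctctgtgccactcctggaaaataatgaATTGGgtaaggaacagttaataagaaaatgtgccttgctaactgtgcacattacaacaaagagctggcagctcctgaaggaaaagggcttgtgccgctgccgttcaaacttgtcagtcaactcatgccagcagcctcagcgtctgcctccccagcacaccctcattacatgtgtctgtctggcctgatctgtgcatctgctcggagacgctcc
PRMT6: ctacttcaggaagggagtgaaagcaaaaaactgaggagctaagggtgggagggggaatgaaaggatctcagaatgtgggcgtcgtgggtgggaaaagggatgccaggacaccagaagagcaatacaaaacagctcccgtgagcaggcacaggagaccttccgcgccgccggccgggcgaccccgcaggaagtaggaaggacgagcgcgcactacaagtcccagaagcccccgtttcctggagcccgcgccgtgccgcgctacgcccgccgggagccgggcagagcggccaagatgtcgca
The COL11A1 window held 3 GC boxes and 1 CCAAT box, that of SNX7 2 GC boxes and 1 CCAAT box, and that of PALMD 1 CCAAT box. No searched motif was found in the PRMT6 window. Among 22114 RefSeq promoters of this length, 43.0% held a GC box, 36.2% a CCAAT box and 12.7% a TATA box. Among the 7185 of them that matched a gene tested here, the shares were 73.3%, 38.3% and 5.16%. The GC content of the window was 66% for COL11A1, 76.7% for SNX7, 51% for PALMD and 63% for PRMT6. Only 55 of the 82 members matched a RefSeq promoter. Of these, 38 (69.1%) held a GC box, 15 (27.3%) a CCAAT box and 5 (9.09%) a TATA box. The members without a match are not covered, and these shares carry no test.

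COL11A1 itself stood at 297 FPKM in A2780CIS, 8.17 in A2780-COL11A1, 0.670 in A2780-shCOL11A1 and 4.23 in A2780 scrambled shRNA. In the other line OVCAR3-COL11A1 had 1.67 FPKM, and OVCAR3-GFP had 0.0258. The order of the libraries follows their labels within each line, and A2780CIS is far above the rest.

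Depth was judged from the steps between low FPKM values, since read counts were not used here. Relative to A2780 scrambled shRNA it lay between 0.501 in OVCAR3-COL11A1 and 1.58 in A2780-COL11A1, and A2780CIS had 0.747. The sum of FPKM ran between 426102 in OVCAR3-COL11A1 and 528744 in A2780CIS. The epithelial markers (11 genes, among them EPCAM and KRT8) summed to 1605 and 3185 FPKM in the OVCAR3 libraries, 46.9 in A2780CIS and 5.76 to 7.93 in the other A2780 libraries. In A2780CIS KRT18 alone gave 44.8 FPKM, and 10 of the 11 markers were under 1 FPKM. The pair VIM and CDH2 summed to 11.9 and 13.4 FPKM in OVCAR3, 3903 in A2780CIS and 542 to 721 in the other A2780 libraries. In the A2780 libraries this sum was nearly all VIM, which gave 3897 FPKM in A2780CIS. CDH2 alone went the other way between the lines. Its highest level was that of OVCAR3-COL11A1 (8.68 FPKM), followed by OVCAR3-GFP (7.30) and A2780CIS (5.94). The other A2780 libraries had 0.218 to 0.920 FPKM of CDH2. The 7 fibroblast markers summed to 551 FPKM in A2780CIS, of which COL3A1 gave 548, against 85.4 to 154 in the other A2780 libraries. The 5 leukocyte markers summed to 0.854 to 3.78 FPKM in the 6 libraries, with MS4A1 at the lowest value of the table in all. A2780CIS thus differs from the other A2780 libraries in marker levels outside the block too, and the part of this in the block's values was not tested.

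The members were lower in A2780CIS as a body. Their median difference, A2780CIS minus the mean of A2780-COL11A1, A2780-shCOL11A1 and A2780 scrambled shRNA, was -0.80 on the log2(FPKM + 1) scale, against -0.05 for all 12841 genes. The middle 50% of members ran between -1.22 and -0.31, while the SD of the 3 other libraries had a median of 0.20 over members. In A2780CIS 50 members (61.0%) were at least 1.5-fold lower, against 20.1% of all genes, and 7 were at least 1.5-fold higher, against 16.8%. A2780CIS lay below all 3 other libraries for 66 members, against 40.2% of all genes, and above all 3 for 9 members, against 35.1%. These shares describe the contrast by which the block was picked. In the 3 other A2780 libraries 5 members were under 1 FPKM throughout, and 2 of these, F3 and ARHGAP29, were so in A2780CIS too. The added 1 FPKM makes the differences of low genes smaller than their ratios. In bulk RNA, fewer cells with a transcript and less of it per cell cannot be told apart.

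**Figure D1:**
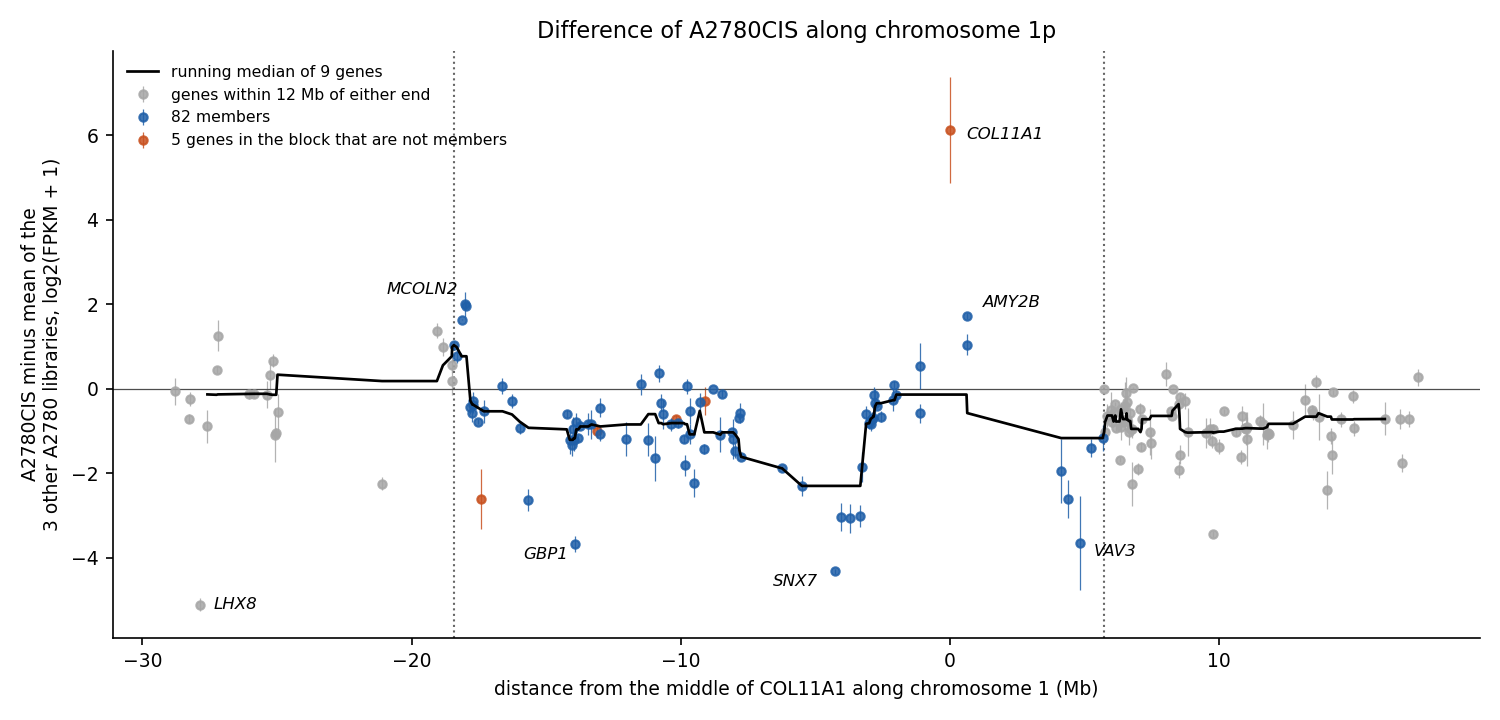
Difference between A2780CIS and the mean of the 3 other A2780 libraries in log2(FPKM + 1) (vertical axis) against distance from the middle of COL11A1 in Mb (horizontal axis). Points are genes, vertical lines are the SD of the 3 other libraries, the black line is a running median of 9 genes, and dotted lines are the ends of the block. COL11A1 stands at 6.11 among members with a median of -0.80, and the genes after the block stay low, with a median of -0.78.

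The low levels did not run evenly along the block. Read in chromosome order, the members fell into 6 stretches, which were drawn after their values were seen and are given as a description. The first 5 members (CTBS to MCOLN3) were all above the 3 other A2780 libraries, with a median difference of 1.63. The next 50 (SYDE2 to PTBP2, chr1:85623355-97280605) had a median of -0.84, and 45 of them were below all 3. The 6 members DPYD to FRRS1 (chr1:97543299-100231349) had a median of -3.02, the lowest of the stretches. The next 14 members, ending with DNAJA1P5 and closest to COL11A1 on that side, had a median of -0.50, and 10 of them were below all 3. RNPC3 and AMY2B, the only members within 1 Mb after COL11A1, were both above all 3. The last 5 members (PRMT6 to FAM102B) were below all 3, with a median of -1.94. COL11A1 therefore stands between a stretch of small differences and a pair of higher genes, with the strongly lowered genes several Mb away on both sides.

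The first gene outside the block before CTBS, GNG5, had 133 FPKM in A2780CIS and 102 to 152 in the other A2780 libraries. RPF1, the next one out, had 35.1 FPKM in A2780CIS and 21.5 to 27.7 in the others. After the block, HENMT1 was at the lowest value of the table in all A2780 libraries, and PRPF38B had 12.4 FPKM in A2780CIS and 25.6 to 27.5 in the others. The first 2 members inside, CTBS and SSX2IP, are described with the raised members, and the last 2, SLC25A24 and FAM102B, with those after COL11A1. Over 12 Mb before the block, 20 genes had a median difference of -0.13. Over 12 Mb after it, 76 genes had a median of -0.78, of which 66 were below all 3 other A2780 libraries, 51 were at least 1.5-fold lower and 0 at least 1.5-fold higher. In steps of 2 Mb away from that end, the medians were -0.77, -0.65, -0.95, -0.66, -0.94 and -0.72. The lower levels in A2780CIS thus have no edge at the end of the block that the rule sets. The other 1202 genes of chromosome 1 had a median of -0.12, and among the other autosomes and X the medians lay between -0.64 on chromosome 13 and 0.34 on chromosome 8.

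Genes of the block that the rule set aside had low A2780CIS values too, apart from COL11A1. CYR61, a secreted matricellular protein, had 1.49 FPKM in A2780CIS, 25.7 in A2780-COL11A1, 11 in A2780-shCOL11A1 and 9.88 in A2780 scrambled shRNA. LRRC8D, a subunit of the volume-regulated anion channel that also admits cisplatin, had 14.7 FPKM in A2780CIS and 26.7 to 32.9 in the others. RPL5, a ribosomal protein, had 905 FPKM in A2780CIS and 1396 to 1623 in the others. GCLM, the modifier subunit of glutamate-cysteine ligase, had 8.25 FPKM in A2780CIS and 8.38 to 13.7 in the others, the smallest difference of these at -0.30.

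Before COL11A1, a run of consecutive members was listed in A2780CIS at 0.001 FPKM, which no entry of the table goes below. SNX7, a sorting nexin of the endosome, lies at chr1:99127235-99226056. It had 0.001 FPKM in A2780CIS, 19.8 in A2780-COL11A1, 18.1 in A2780-shCOL11A1 and 19.2 in A2780 scrambled shRNA, and 11.1 in OVCAR3-COL11A1 and 9.34 in OVCAR3-GFP. It was the member with the lowest difference (-4.32), and the 3 other A2780 libraries differed by little (SD 0.06). DPYD, which encodes dihydropyrimidine dehydrogenase, the first enzyme of pyrimidine breakdown, had 0.001 FPKM in A2780CIS, 3.18 in A2780-COL11A1, 4.81 in A2780-shCOL11A1 and 3.95 in A2780 scrambled shRNA.

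LPPR5 and LPPR4 encode membrane proteins related to lipid phosphate phosphatases, known from neurons. LPPR5 had 0.001 FPKM in A2780CIS, 5.41 in A2780-COL11A1, 8.97 in A2780-shCOL11A1 and 7.64 in A2780 scrambled shRNA. LPPR4 had 0.001 FPKM in A2780CIS, 5.36 in A2780-COL11A1, 8.80 in A2780-shCOL11A1 and 8.60 in A2780 scrambled shRNA. PALMD, palmdelphin, a cytosolic relative of paralemmin, had 0.001 FPKM in A2780CIS, 8.84 in A2780-COL11A1, 6.52 in A2780-shCOL11A1 and 5.99 in A2780 scrambled shRNA. A2780CIS stood apart from the other A2780 libraries for all of these, and the others were of one order of size. FRRS1, a ferric-chelate reductase relative, followed with 0.0578 FPKM in A2780CIS and 1.88 to 3.56 in the other A2780 libraries.

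Among members with at least 2 FPKM in each other A2780 library, 6 of 61 (9.84%) were at this lowest value in A2780CIS, against 0.746% of all such genes (77 of 10318). The sixth was VAV3, on the far side of COL11A1. This count was chosen after the values were seen. Between DPYD and LPPR5 the long noncoding RNA MIR137HG, whose mean was under the minimum, also had 0.001 FPKM in A2780CIS, against 1.06 to 1.16 in the other A2780 libraries. LOC100129620, between LPPR5 and LPPR4, had 0.001 FPKM in A2780CIS and 0.867 to 1.06 in the others. An entry at the lowest value can be a missing estimate as well as an absence of reads, so no fold is given against it. The loci of DPYD, LPPR5, PALMD, FRRS1 and VAV3 overlap other entries of the table, and 23 of the 82 members do in all. Reads of such genes could be assigned to either entry.

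**Figure D2:**
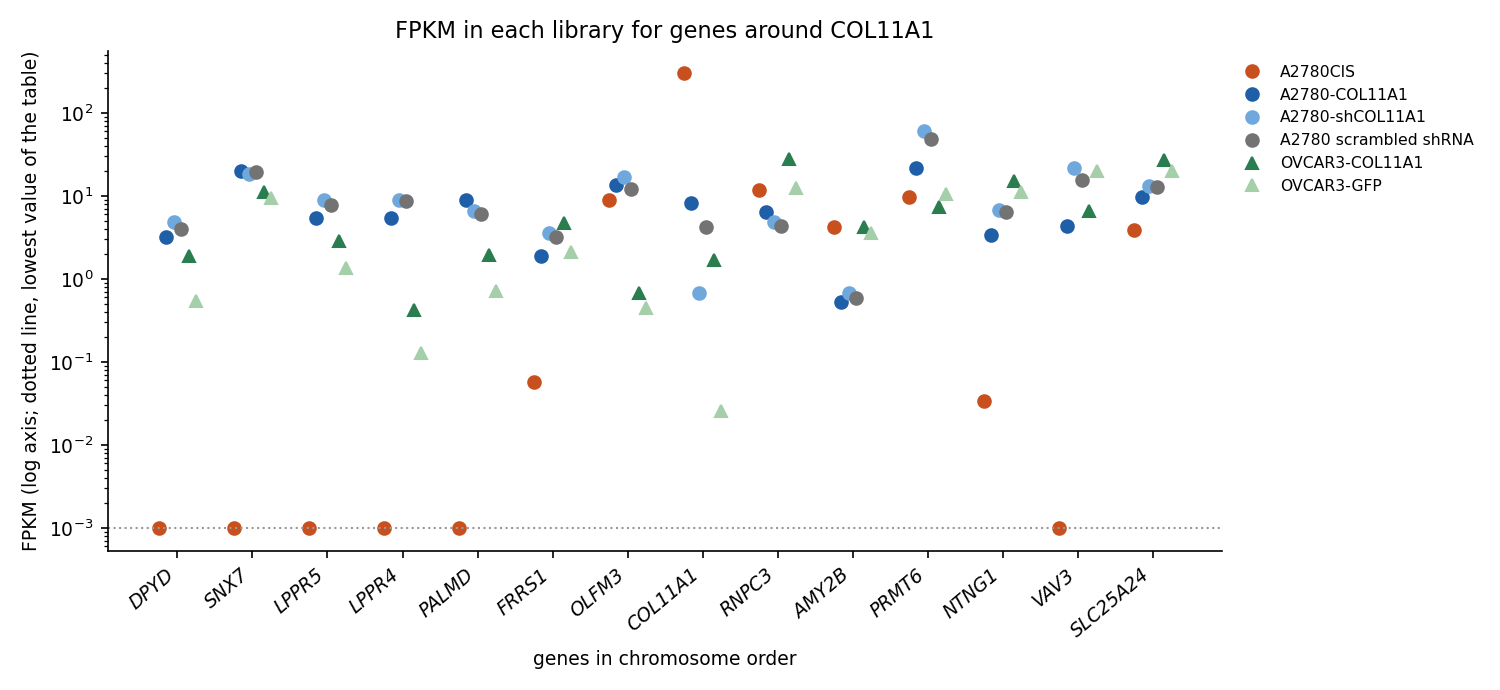
FPKM on a log axis (vertical) for 13 members and COL11A1 in chromosome order (horizontal); circles are A2780 libraries, triangles OVCAR3 libraries, and the dotted line is the lowest value of the table. A2780CIS is at 0.001 FPKM for DPYD, SNX7, LPPR5, LPPR4, PALMD and VAV3, at 297 FPKM for COL11A1, and above the other A2780 circles for RNPC3 and AMY2B.

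Levels were closer to those of the other A2780 libraries nearer to COL11A1. Of the 6 members nearest to COL11A1 on that side, CDC14A, a cell cycle phosphatase, had 1.96 FPKM in A2780CIS and 3.45 to 4.21 in the other A2780 libraries. EXTL2, a glycosyltransferase, had 11.2 FPKM in A2780CIS and 11.8 to 17.1 in the others. SLC30A7, a zinc transporter of the Golgi, had 3.58 FPKM in A2780CIS and 3.03 to 3.47 in the others. DPH5, an enzyme of diphthamide synthesis, had 19.1 FPKM in A2780CIS and 18.8 to 22.6 in the others, so that the groups overlapped. OLFM3, olfactomedin 3, a secreted glycoprotein known from neurons, had 8.99 FPKM in A2780CIS, 13.6 in A2780-COL11A1, 16.6 in A2780-shCOL11A1 and 11.9 in A2780 scrambled shRNA. DNAJA1P5, a pseudogene inside the OLFM3 locus, had 28.9 FPKM in A2780CIS, 29.9 in A2780-COL11A1, 13.8 in A2780-shCOL11A1 and 17.9 in A2780 scrambled shRNA. Reads of DNAJA1P5 may belong to its parent gene DNAJA1, so its level is uncertain.

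After COL11A1, the nearest member at a gap of 495 kb was RNPC3, which encodes a protein of the U11/U12 particle of the minor spliceosome. It had 11.6 FPKM in A2780CIS, 6.44 in A2780-COL11A1, 4.86 in A2780-shCOL11A1 and 4.35 in A2780 scrambled shRNA, and 27.8 in OVCAR3-COL11A1 and 12.5 in OVCAR3-GFP. In both lines every COL11A1-high library was above the COL11A1-low ones. AMY2B, an alpha-amylase gene whose locus overlaps that of RNPC3, had 4.25 FPKM in A2780CIS and 0.519 to 0.677 in the other A2780 libraries, and 4.20 in OVCAR3-COL11A1 and 3.60 in OVCAR3-GFP. AMY2B belongs to a family of near-identical copies, so its reads are hard to place.

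Farther out, from a gap of 4025 kb, levels were low again in A2780CIS. PRMT6, which methylates arginine on histone H3, had 9.66 FPKM in A2780CIS, 21.6 in A2780-COL11A1, 60.1 in A2780-shCOL11A1 and 48.4 in A2780 scrambled shRNA. NTNG1, netrin-G1, an axon guidance protein, had 0.0336 FPKM in A2780CIS, 3.39 in A2780-COL11A1, 6.82 in A2780-shCOL11A1 and 6.34 in A2780 scrambled shRNA. VAV3 had 0.001 FPKM in A2780CIS, 4.31 in A2780-COL11A1, 21.7 in A2780-shCOL11A1 and 15.7 in A2780 scrambled shRNA. In these 3 genes A2780-COL11A1 stood between A2780CIS and the shRNA libraries. SLC25A24, a mitochondrial ATP-Mg and phosphate carrier, had 3.82 FPKM in A2780CIS, 9.80 in A2780-COL11A1, 13.1 in A2780-shCOL11A1 and 12.6 in A2780 scrambled shRNA. FAM102B, the last member, had 1.11 FPKM in A2780CIS, 2.81 in A2780-COL11A1, 4.79 in A2780-shCOL11A1 and 3.82 in A2780 scrambled shRNA.

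At the other end of the block lie 5 of the 9 members that were higher in A2780CIS than in all 3 other A2780 libraries. LPAR3, a receptor for lysophosphatidic acid, had 7.42 FPKM in A2780CIS and 1.68 to 1.74 in the others. MCOLN2 and MCOLN3 encode mucolipin cation channels of endosomes and lysosomes. MCOLN2 had 7.90 FPKM in A2780CIS and 0.791 to 1.70 in the others, the highest difference among the members (2.0). MCOLN3 had 6.30 FPKM in A2780CIS and 0.750 to 0.970 in the others. CTBS, the lysosomal chitobiase, had 5.12 FPKM in A2780CIS and 1.79 to 2.12 in the others. SSX2IP, a protein of the centrosome and of cell junctions, had 20.5 FPKM in A2780CIS and 10.3 to 13.2 in the others.

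**Figure D3:**
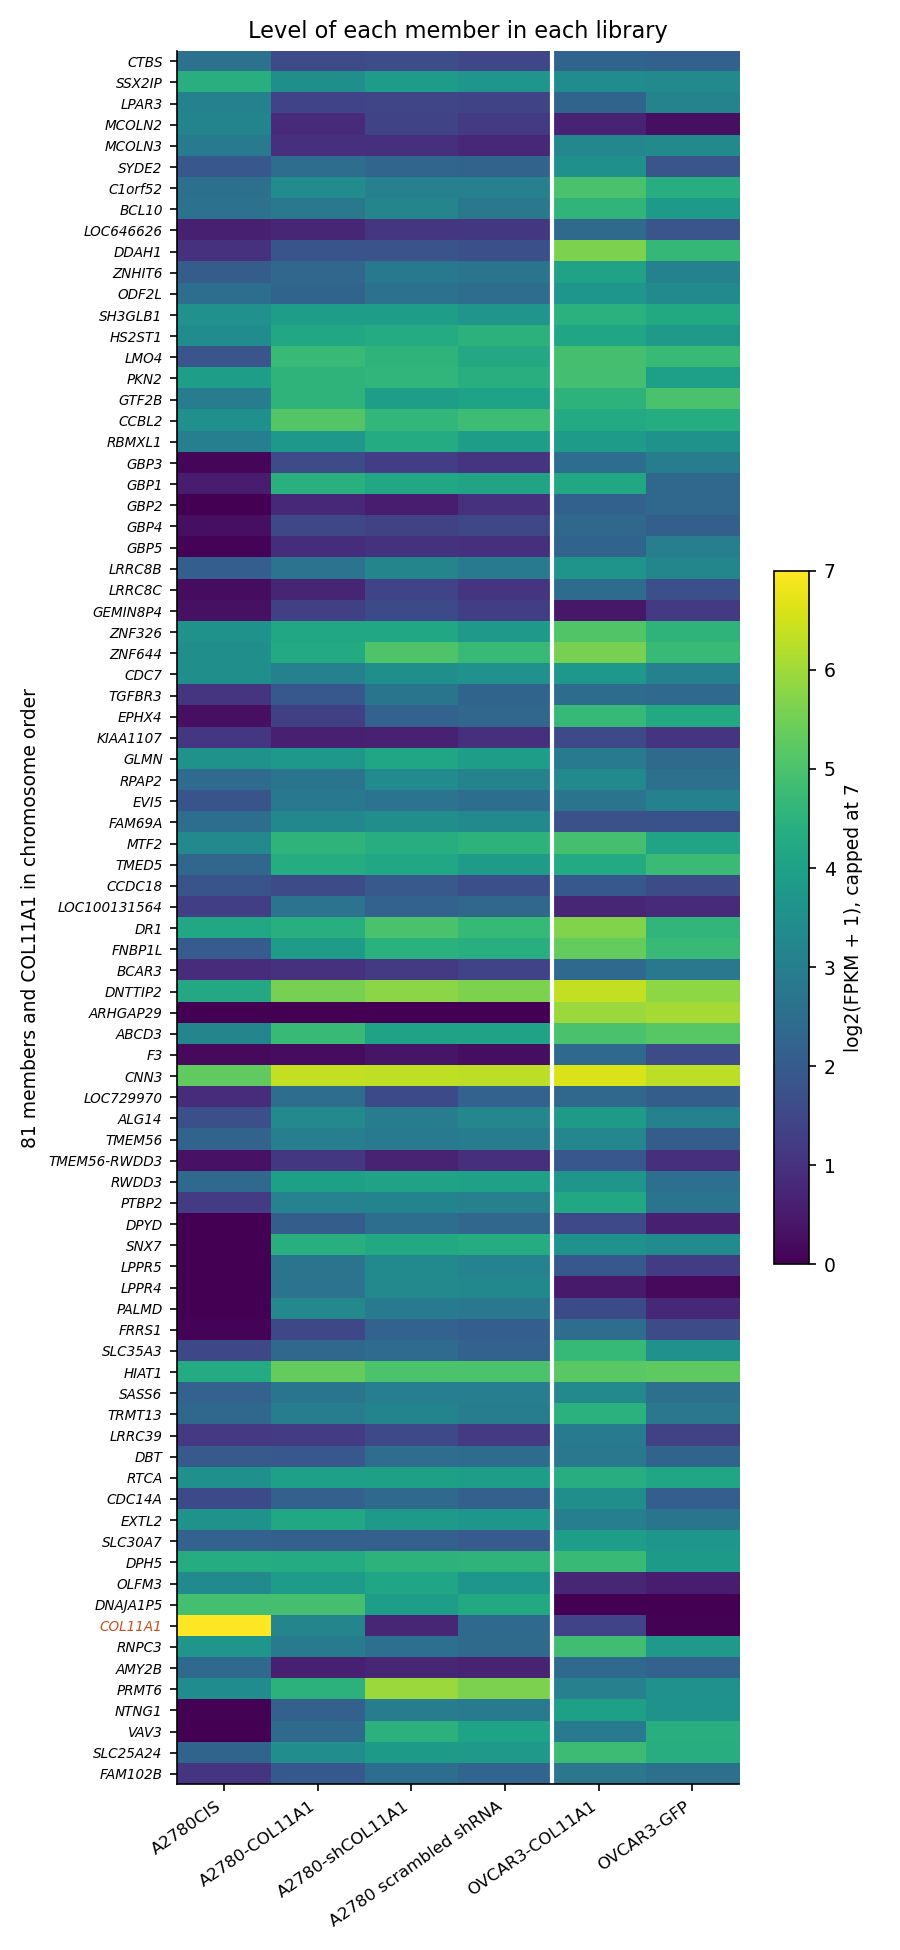
Level of COL11A1 and of 81 members in chromosome order (vertical) in each library (horizontal), as log2(FPKM + 1) in colour, capped at 7. A2780CIS is darker than the other A2780 libraries over most of the column, brighter for the first 5 members, and dark for DPYD to FRRS1.

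Counts by role hold the contrast the block was picked on. In A2780CIS 61.0% of all members and 20.1% of all genes were at least 1.5-fold lower. Below all 3 other A2780 libraries were 80.5% and 40.2%. By role, the GBP genes were low together in A2780CIS. Of these, 5 of 5 members were at least 1.5-fold lower and below all 3 other A2780 libraries, with a median difference of -1.18. GBP1 had 0.483 FPKM in A2780CIS, 20.7 in A2780-COL11A1, 17.4 in A2780-shCOL11A1 and 16.0 in A2780 scrambled shRNA. GBP3 had 0.0646 FPKM in A2780CIS and 1.10 to 2.01 in the others. GBP4 had 0.225 FPKM in A2780CIS and 1.60 to 1.86 in the others, and GBP5 had 0.0571 FPKM in A2780CIS and 0.885 to 1.05 in the others. GBP2 had 0.001 FPKM in A2780CIS and 0.488 to 1.00 in the others, all low. These GTPases of cell-autonomous immunity are induced by interferon gamma and sit side by side in the block, so they share both function and position.

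All 7 members on the list of transcription and chromatin genes lay below the 3 other A2780 libraries in A2780CIS, with a median difference of -1.19. At least 1.5-fold lower were 5 (71.4%, against 61.0% of all members). LMO4, a LIM-only transcription cofactor, had 2.62 FPKM in A2780CIS, 25.4 in A2780-COL11A1, 22.7 in A2780-shCOL11A1 and 17.6 in A2780 scrambled shRNA. ZNF644, a zinc finger partner of the histone methyltransferase G9a, had 10.3 FPKM in A2780CIS and 18.5 to 32.7 in the others. DR1, a repressor that binds the TATA-binding protein, had 16.9 FPKM in A2780CIS and 20.0 to 31.0 in the others.

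Of 8 RNA processing genes, 5 (62.5%, against 61.0% of all members) were at least 1.5-fold lower and 1, RNPC3, was higher. Their median difference was -0.65. DNTTIP2, a nucleolar protein of ribosomal RNA processing, had 17.8 FPKM in A2780CIS and 46.3 to 54.4 in the others. RBMXL1, an RNA-binding retrogene of RBMX, had 7.17 FPKM in A2780CIS and 12.3 to 18.9 in the others, but the retrogene can share reads with RBMX. RTCA, the RNA 3'-terminal phosphate cyclase, had 10.5 FPKM in A2780CIS and 13.8 to 14.8 in the others. Of 7 cell cycle genes, 3 (42.9%) were at least 1.5-fold lower and 4 lay below all 3 others, with a median of -0.33. CDC7, a kinase that starts DNA replication, had 10.1 FPKM in A2780CIS and 7.47 to 10.7 in the others, so that the groups overlapped, as they did for ODF2L, a protein of the centriole, with 4.73 FPKM in A2780CIS and 3.77 to 5.17 in the others. GLMN, which binds cullin ligases, had 11.1 FPKM in A2780CIS and 12.2 to 16.5 in the others. SASS6, the centriole cartwheel protein, had 3.57 FPKM in A2780CIS and 5.59 to 7.04 in the others.

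Of 16 metabolic enzymes and carriers, 10 (62.5%, against 61.0% of all members) were at least 1.5-fold lower and 2, CTBS and AMY2B, were higher. Their median was -0.80, as for all members. CCBL2, a kynurenine aminotransferase, had 10.5 FPKM in A2780CIS and 23.7 to 33.9 in the others. ABCD3, a peroxisomal transporter of branched fatty acids, had 8.08 FPKM in A2780CIS and 15.2 to 26.0 in the others. HS2ST1, a sulfotransferase of heparan sulfate, had 9.67 FPKM in A2780CIS and 17.4 to 21.8 in the others. Of 17 signalling and adhesion genes, 9 (52.9%) were lower and 3 higher by 1.5-fold, with a median of -0.61. FNBP1L, an actin nucleation adaptor, had 3.08 FPKM in A2780CIS and 13.7 to 21.3 in the others, and CNN3, the actin-binding calponin 3, had 38.4 FPKM in A2780CIS and 78.3 to 81.1 in the others. PKN2, a protein kinase C-related kinase, had 14.1 FPKM in A2780CIS and 20.4 to 23.2 in the others. Of 5 genes of membrane traffic, 4 (80.0%) were lower, with a median of -0.83. TMED5, a p24 cargo protein, had 3.97 FPKM in A2780CIS and 13.4 to 19.2 in the others. HIAT1, a membrane transporter-like protein, had 18.7 FPKM in A2780CIS and 31.6 to 39.3 in the others, and SH3GLB1, endophilin B1, had 10.5 FPKM in A2780CIS and 11.5 to 14.1 in the others. The lists cover 65 members and 17 are on none.

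Across all 6 libraries, some members tracked the median pattern of the block closely. The 6 points share library totals and the split between the lines, and the coefficients are a description. Pearson's r with that median pattern was 0.985 for DNTTIP2, 0.985 for LRRC8B (a volume-regulated anion channel subunit), 0.982 for FNBP1L, 0.978 for SLC25A24 and 0.977 for ZNF644. It was lowest for SSX2IP (-0.84), MCOLN2 (-0.83), DNAJA1P5 (-0.72), OLFM3 (-0.53) and EXTL2 (-0.44).

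Set against COL11A1 itself, the 4 A2780 libraries rank A2780CIS, A2780-COL11A1, A2780 scrambled shRNA and A2780-shCOL11A1, from high to low. Not 1 of the 82 members kept this order in FPKM, against 7.83% of all genes, and 26 (31.7%) had the exact reverse, against 11.9%. Those 26 include PRMT6, VAV3, NTNG1, LPPR4, LPPR5, DPYD, DNTTIP2 and FNBP1L. Both counts hold A2780CIS and thus the contrast the block was picked on. Without A2780CIS, and with the OVCAR3 pair required to go the same way, 8 members (9.76%) followed COL11A1, against 10.8% of all genes, and 5 (6.10%) ran against it, against 10.7%. The 8 were C1orf52, GBP4, MTF2, LOC729970, ALG14, TMEM56, TMEM56-RWDD3 and SNX7, and the 5 were LPAR3, GBP5, FAM69A, PRMT6 and VAV3. The shares of the members lay at or below those of all genes once A2780CIS was set aside. These ranks were added after the data were seen, and they carry no test.

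Set against A2780 scrambled shRNA, A2780-COL11A1 showed no lowering of the block as a whole. COL11A1 itself had 8.17 FPKM in A2780-COL11A1 and 4.23 in that control, against 297 in A2780CIS. Its median difference from A2780 scrambled shRNA over members was -0.02, against -0.04 for all genes. At least 1.5-fold lower were 5 members (6.10%), against 8.91% of all genes, and 2 were higher, against 4.45%. With A2780-shCOL11A1 as the control, 16 members were lower and 4 higher, and the shares of all genes were not computed. Among members whose higher library reached 5 FPKM, the lowest were VAV3 (-1.65), PRMT6 (-1.13) and NTNG1 (-0.74), neighbours in the last stretch, whose 5 members were all below the control. Below that level, EPHX4, in the long second stretch, had -0.98. The highest at 5 FPKM or more were ABCD3 (0.72), DNAJA1P5 (0.71) and LMO4 (0.51). ABCD3 had 26.0 FPKM in A2780-COL11A1 and 15.4 in A2780 scrambled shRNA, and the FPKM of the other named genes in both libraries stand above. With 1 library on each side there is no test.

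A2780-shCOL11A1 differed little from A2780 scrambled shRNA in the block. The median difference was 0.11, against 0.00 for all genes. Above 0 were 58 of 82 members, against 6305 of 12841 genes. With the trend on transcript GC content over all genes taken out, the median was 0.06 in 78 members, against 0.12 before. This check was added after the data were seen. By 1.5-fold, 1 member was lower, against 1.37% of all genes, and 0 were higher, against 0.74%. That member was LOC729970, with 1.97 FPKM in A2780-shCOL11A1 and 3.56 in A2780 scrambled shRNA. Among members with at least 5 FPKM, the lowest were DNAJA1P5 (-0.35), ALG14 (-0.28; an enzyme of N-glycan assembly) and CCBL2 (-0.20), and the highest TGFBR3 (0.46; the betaglycan coreceptor), OLFM3 (0.45) and VAV3 (0.45). TGFBR3 had 5.53 FPKM in A2780-shCOL11A1 and 3.75 in A2780 scrambled shRNA.

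**Figure D4:**
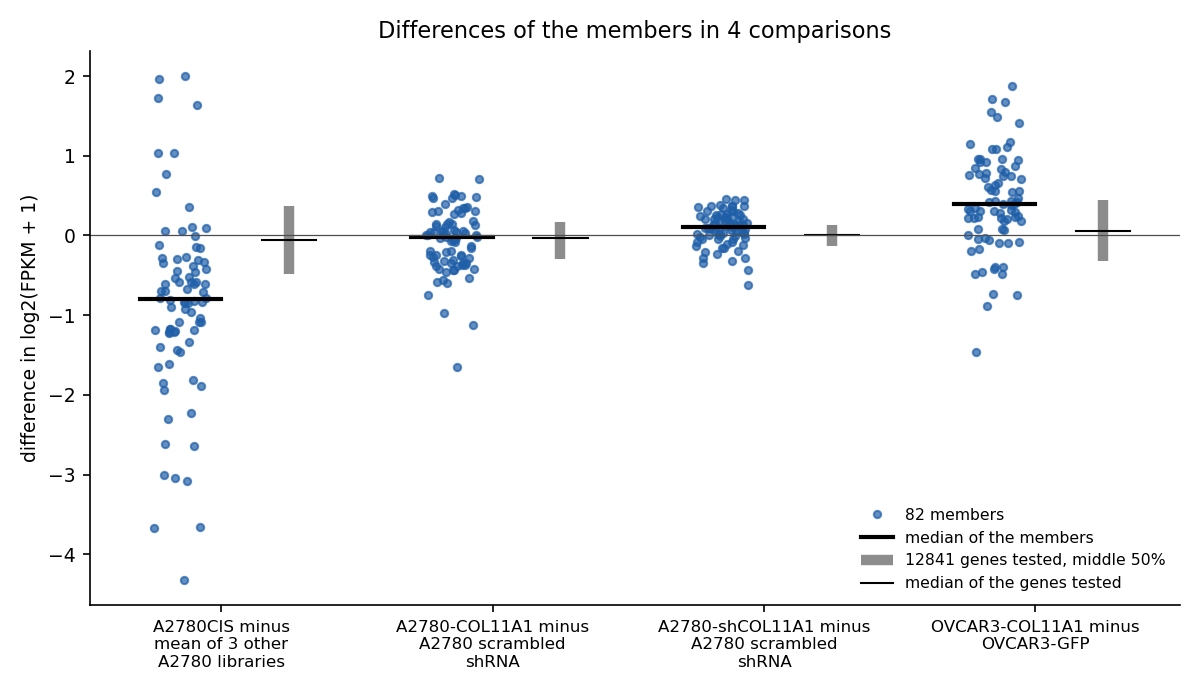
Difference in log2(FPKM + 1) (vertical axis) of the 82 members (points, with their median as a thick line) in 4 comparisons (horizontal axis); grey bars are the middle 50% of the 12841 genes tested and the thin line their median. The members' median is -0.80 in A2780CIS, -0.02 in A2780-COL11A1, 0.11 in A2780-shCOL11A1 and 0.40 in OVCAR3-COL11A1.

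In OVCAR3 most members went the other way. OVCAR3-COL11A1 minus OVCAR3-GFP had a median of 0.40 over members, against 0.05 for all genes. Above 0 were 63 of 82 members, against 6890 of 12841 genes. At least 1.5-fold higher were 31 members (37.8%), against 18.7% of all genes, and 4 were lower (4.88%), against 13.6%. Among members whose higher library reached 5 FPKM, the highest were GBP1 with 17.4 FPKM in OVCAR3-COL11A1, against 4.01 in OVCAR3-GFP, TRMT13 (a tRNA methyltransferase) with 21.3 FPKM in OVCAR3-COL11A1, against 5.84 in OVCAR3-GFP, and SYDE2 (a GTPase-activating protein) with 10.5 FPKM in OVCAR3-COL11A1, against 2.62 in OVCAR3-GFP. The lowest of these were VAV3 with 6.58 FPKM in OVCAR3-COL11A1, against 19.9 in OVCAR3-GFP, LPAR3 with 3.77 FPKM in OVCAR3-COL11A1, against 7.84 in OVCAR3-GFP, and GBP5 with 3.77 FPKM in OVCAR3-COL11A1, against 6.96 in OVCAR3-GFP. All 6 members from DPYD to FRRS1, so low in A2780CIS, were higher in OVCAR3-COL11A1, with a median of 0.75. DPYD, LPPR4 and PALMD were under 2 FPKM in both OVCAR3 libraries. With the trend on transcript GC content taken out, SNX7 had -0.05, LPPR4 0.06, and DPYD, LPPR5, PALMD and FRRS1 0.38 to 0.61.

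This OVCAR3 difference moved with base composition. Across all genes with a known transcript, OVCAR3-COL11A1 minus OVCAR3-GFP had an r of -0.367 with the GC content of the transcript, and 75 of 78 members were below the median GC of all genes (41.0% at the median, against 50%). With the GC trend over all genes taken out, an alternative added after the data were seen, the members' median was 0.10 and 16 members were at least 1.5-fold higher, in place of 0.41 and 31 for the same 78. OVCAR3-COL11A1 was also the shallowest library, and the part of depth was not tested. The A2780CIS median was as large without the GC trend (-0.92 in 78 members, against -0.79 before).

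**Figure D5:**
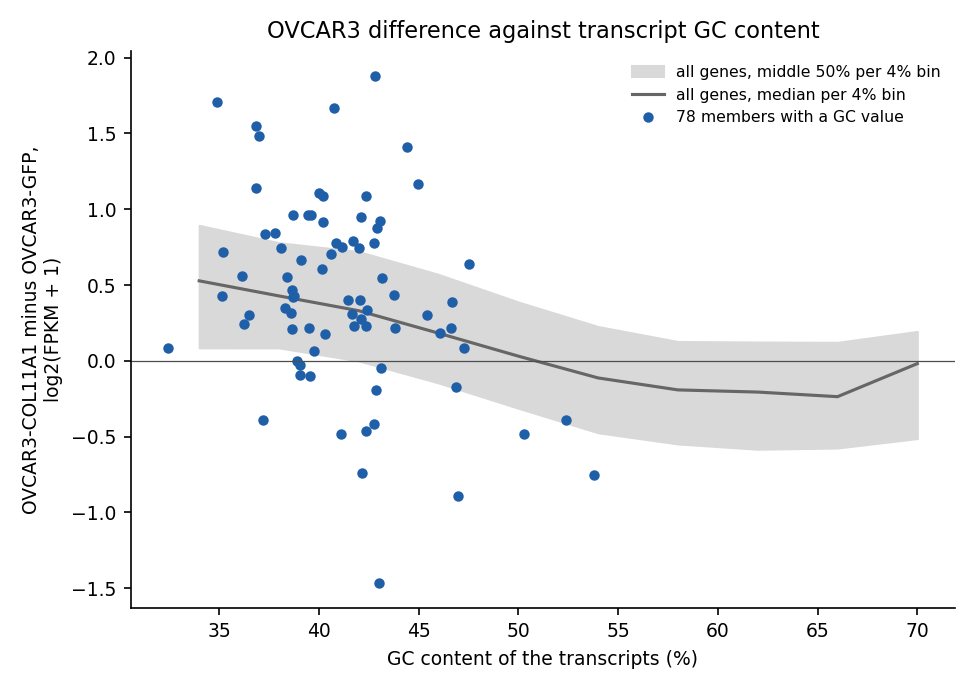
OVCAR3-COL11A1 minus OVCAR3-GFP in log2(FPKM + 1) (vertical axis) against GC content of the transcripts in percent (horizontal axis); points are 78 members, the line and band are the median and middle 50% of all genes in bins of 4%. Most members lie on the left, where the line for all genes is above 0; the members' median is 0.41 and falls to 0.10 with the trend taken out.

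Whether COL11A1 overexpression changed the members was tested in the 5 libraries other than A2780CIS. All 5 entered the mean FPKM that members had to reach, and the 3 A2780 libraries among them were the side A2780CIS was set against when the block was picked. The limma fit had a COL11A1 group term (A2780-COL11A1 and OVCAR3-COL11A1 against A2780-shCOL11A1, OVCAR3-GFP and A2780 scrambled shRNA) and a line term. Of 82 members, 0 were higher and 0 lower at a Benjamini-Hochberg adjusted p under 0.05, as for all genes (0% in both directions), and the smallest adjusted p was 0.489. Not even COL11A1, the overexpressed gene, was called. The 0 for members therefore cannot decide whether overexpression changed them. At an unadjusted p under 0.05, 3 members were higher, against 3.81% of all genes, and 2 lower, against 5.37%. VAV3 had the smallest p, with a limma log2 difference of -1.70 ± 0.23 (SE; unadjusted p = 0.000678), lower than its control in both lines. PRMT6 had -0.94 ± 0.25, again with both lines the same way. RNPC3 had 0.70 ± 0.23, PALMD 0.59 ± 0.20 and C1orf52 0.47 ± 0.17, all above their controls in both lines. GBP1 (0.97 ± 0.39) and TMEM56-RWDD3 (0.59 ± 0.23) came next in the upward direction, and BCAR3 (-0.34 ± 0.19), GEMIN8P4 (-0.39 ± 0.23) and GBP5 (-0.37 ± 0.23) in the downward one.

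The median estimate over members was 0.10, against 0.00 for all genes. It turned on single libraries: without A2780-COL11A1 it was 0.40, against 0.05 for all genes. Without OVCAR3-COL11A1, as without OVCAR3-GFP, it was -0.10, against -0.03. Each of these fits leaves 1 library in a group or line, so no counts are given for them. With all 6 libraries, the COL11A1-high against COL11A1-low comparison again called 0 members in either direction (0% of all genes). At an unadjusted p under 0.05 it had 1 member higher (RNPC3, 0.89 ± 0.26, against 2.41% of all genes) and 2 lower (VAV3, -2.54 ± 0.69, and PRMT6, -1.38 ± 0.41, against 4.07%). That fit holds A2780CIS and is given as a description.

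Members differed between the lines in both directions, and were lower in OVCAR3 less often than all genes. In the 5 libraries without A2780CIS, OVCAR3 was higher than A2780 for 24 members (29.3%, against 24.1% of all genes) and lower for 14 (17.1%, against 33.1%) at a limma adjusted p under 0.05. The median over members was 0.35, against -0.16 for all genes. Scaling the libraries to 1 median moved the latter to 0.03. It moved the counts to 34 higher and 13 lower, against 3715 and 3485 of 12841 genes. Without OVCAR3-GFP, which leaves 1 OVCAR3 library, the median over members was 0.65, against -0.10 for all genes. With overlapping loci left out, 5 of 59 members were lower, against 3146 of 9723 genes.

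Members such as ARHGAP29, F3, GBP2 and GBP5 reached the mean of 1 FPKM only through OVCAR3, so they had to be higher there. The count of higher members is in part set by that minimum. ARHGAP29, a GTPase-activating protein, had the largest difference of the members, with 60.9 and 65.0 FPKM in OVCAR3 and 0.001 to 0.00969 in all A2780 libraries, a description for the same reason. DDAH1, which degrades asymmetric dimethylarginine, had 48.4 and 24.5 FPKM in OVCAR3 and 2.27 to 2.53 in the A2780 libraries other than A2780CIS, where it had 0.993 (limma 3.30 ± 0.26, adjusted p = 0.000739). MCOLN3 rose by 2.40 ± 0.19, SLC30A7 by 1.68 ± 0.19 and AMY2B by 1.62 ± 0.18. For MCOLN3 and AMY2B the level in A2780CIS was nearer to OVCAR3 than to the other A2780 libraries.

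Of the members at least 1.5-fold lower in A2780CIS, some were lower in OVCAR3 and others higher. Higher at a limma adjusted p under 0.05 were DDAH1, EPHX4, GBP3, GBP4, SLC35A3, SLC25A24, NTNG1 and ABCD3. GBP2 and GBP5 were higher too, but they reached the mean of 1 FPKM only through OVCAR3, so theirs is a description. Among those lower, LPPR4 had 0.425 and 0.129 FPKM in OVCAR3 (limma -2.70 ± 0.28, adjusted p = 0.00143), and PALMD had 1.95 and 0.705 (-1.94 ± 0.20, adjusted p = 0.00146). LPPR5 fell by 1.45 ± 0.33, DPYD by 1.26 ± 0.34 and SNX7 by 0.86 ± 0.16, all with adjusted p under 0.05. DNAJA1P5, not low in A2780CIS at 28.9 FPKM, was at the lowest value of the table in both OVCAR3 libraries (limma -4.44 ± 0.28). OLFM3 fell to 0.670 and 0.441 FPKM in OVCAR3 (-3.28 ± 0.23). PRMT6 had 7.25 and 10.5 FPKM in OVCAR3, close to the 9.66 of A2780CIS (-1.91 ± 0.24). FAM69A, a kinase-like protein of the endoplasmic reticulum, had 2.31 and 2.37 FPKM in OVCAR3 and 8.56 to 10.1 in the 3 A2780 libraries (-1.60 ± 0.19). VAV3 was not called between the lines (0.28 ± 0.23, adjusted p = 0.338). A limma fit across all genes gave these values, with 2 OVCAR3 and 3 A2780 libraries.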

How the data were processed

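Per the labels' protocols, poly-A RNA was made into stranded single-end libraries and sequenced on a NextSeq 500. The authors deposited 1 table with 1 value per gene and library, headed FPKM per the file headers; a few cells carry a status word and no number, so the deposited unit was recorded as other and numbers were read as FPKM. STAR 2.5.0, RSEM 1.2.25 and GRCh38 appear in the submitters' processing notes, while the table's loci are those of GRCh37, so which program gave the values is not given in the sources used here.

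Of 25275 entries, those on other contigs (1304), names with several loci (308), entries without a number in all libraries (104) or some (2) and names turned into dates (24) were left out, and 23145 genes were kept. A date name in the block and 4 names with several loci there were among those left out. The 12841 genes whose mean reached 1 FPKM were tested on log2(FPKM + 1) with limma 3.58.1 in R 4.3.3 (two-sided, variances moderated with a trend on the mean, Benjamini-Hochberg at 5%), after a check on simulated data. The groups are different constructs, each sequenced once, and the fit has a line term. The spread behind the p-values is thus that between constructs of 1 line and group, and the disagreement of the group effect between the lines. Pairs of single libraries have no test. GC content came from GENCODE transcripts matched by symbol (78 of 82 members), promoters from RefSeq GRCh38.p14.

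Members and lists were chosen with earlier results of these data known. Named members are the 6 nearest to COL11A1 on each side, the 10 lowest and 5 highest in A2780CIS and the 3 lowest and 3 highest of each pair (all with at least 5 FPKM on the higher side), up to 5 per direction of the 5-library fits by unadjusted p, the genes at both ends, up to 4 per role list by mean FPKM, and the 5 most like and most unlike the median pattern; others were named after their values were seen. The values of 1 member are not reported here.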

Additional observations from a re-analysis of the deposited data

Results flagged for a closer look

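The difference of high against low COL11A1 libraries over the block was above 0 in OVCAR3 and below 0 in A2780, where it rests mostly on A2780CIS, the library on which the block was picked. Over the 82 members, the median of the OVCAR3 effect minus the A2780 effect was 1.01 on the log2(FPKM + 1) scale, against 0.11 for all genes. Against the mean of the COL11A1-low A2780 libraries, the median was -0.79 in A2780CIS and -0.10 in A2780-COL11A1, while OVCAR3-COL11A1 minus OVCAR3-GFP had 0.40. The difference over the block was not tested. For single genes, the limma interaction of group and line called 0 members, with a smallest adjusted p of 0.306. That fit includes A2780CIS as well.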

How the results depend on the processing

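No paired analysis was possible because the labels carry no replicate numbers and each construct was sequenced once. The A2780CIS median over members was -0.80, and -0.57 with no filter on low values; without 1 of the other A2780 libraries in turn it ran between -0.82 and -0.74, with 49 to 53 members at least 1.5-fold lower and 66 to 69 below all others. At a threshold of 2-fold, 32 members were lower in place of 50. The OVCAR3-COL11A1 median of 0.40 was 0.10 with the GC trend removed, a check added after seeing the data. Between the lines, 24 members were higher and 14 lower in OVCAR3: with a mean of at least 5 FPKM these were 12 and 9 (52 members tested), with overlapping loci left out 5 were lower (59 tested), and without each library in turn 18 to 41 were higher and 11 to 20 lower, the 41 without OVCAR3-GFP. The COL11A1 group fits called 0 members at an adjusted p under 0.05 in every setting run. The A2780-COL11A1 median, -0.02 against A2780 scrambled shRNA, lay near 0 on either side, between -0.13 with A2780-shCOL11A1 as the control and 0.09 with the libraries scaled to 1 median, so it has no stable sign. Differences in A2780CIS near 0 also changed sign in some settings for ARHGAP29, CDC7, ODF2L and SLC30A7. Of all the values of these summaries, those listed here included, 137 stayed within the spread or within 1.5 times and 7 did not. For single genes and smaller counts 1020 did and 125 did not. Depth is known only as a ratio between libraries, so no counting interval could be given, and each A2780CIS value rests on 1 library.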

Other observations

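Outside the block and the named members, the gene with the largest A2780CIS difference within 12 Mb was LHX8, a LIM homeobox gene, with 0.821 FPKM in A2780CIS and 55.4 to 69.0 in the other A2780 libraries. After the block, 3 neighbouring glutathione transferase genes were low in A2780CIS. GSTM2 had 9.88 FPKM in A2780CIS and 33.2 to 63.5 in the other A2780 libraries, GSTM1 had 18.1 FPKM in A2780CIS and 30.6 to 40.9 in the others, and GSTM4 had 8.42 FPKM in A2780CIS and 15.6 to 18.6 in the others. These genes are near-identical copies and can share reads. SARS, the cytosolic seryl-tRNA synthetase, had 103 FPKM in A2780CIS and 320 to 347 in the other A2780 libraries, and CSF1, a macrophage growth factor, had 1.70 FPKM in A2780CIS and 8.0 to 9.64 in the others. They were chosen after their values were seen and carry no test.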
